A study of Homo sapiens with 9 samples.

Results

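The 38 genes described here carry out or control the synthesis of cholesterol and fatty acids: 22 are sterol genes and 16 are fatty acid genes. They were chosen as a list of symbols, matched to the Ensembl identifiers of the deposited expression table, and make up 38 of its 31004 genes. Their RNA was measured in MDA-MB-468, a basal-like, triple-negative breast cancer cell line, after knockdown of FAM83H-AS1, a long noncoding RNA. A lentivirus, given at an MOI of 10, drove 1 of 2 short hairpin RNAs against FAM83H-AS1, shFAM83H-AS1_1 or shFAM83H-AS1_2, or the control hairpin shNC. All 3 groups grew in DMEM with 10% fetal bovine serum and became stable lines under puromycin (1 µg/mL), so controls also carry a lentivirus and the drug, although their genotype is labelled WT. Each group had 3 RNA-seq libraries made from 2 µg of total RNA, and where nothing says that these came from separate cultures, p-values measure the spread between libraries, which may be technical.

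Cells build cholesterol from acetyl-CoA through mevalonate, isoprenoid pyrophosphates, squalene and lanosterol, and they build fatty acids from the same acetyl-CoA through malonyl-CoA. The transcription factors SREBP-2 (gene SREBF2), mainly for sterol genes, and SREBP-1 (SREBF1), mainly for fatty acid genes, turn these pathways on together. When membrane sterol is plentiful, INSIG proteins hold the escort protein SCAP, and with it the SREBP precursors, in the endoplasmic reticulum. The SREBP genes are themselves SREBP targets. Breast cancer cells often make fatty acids de novo even when serum supplies them.

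Levels are given in FPKM, which corrects read numbers for gene length and library depth, so that genes of different length can be compared. Such comparisons rest on the gene lengths used, which for some members differ from GENCODE 29. The length recovered from the values was 10054 bases for SC5D and 2639 for ACAT2, against 5566 and 4299 exonic bases in GENCODE 29. Libraries held 15264471 to 18107130 gene reads, and 10665 to 11807 genes reached 1 FPKM. The library shFAM83H-AS1_1 replicate 3 stood apart, with a first principal component score of 61.2 against -24.3 to 5.66 for the other 8, and values without it are given for the members it moved by more than 1.5 times. FAM83H-AS1 was read from ENSG00000203499, a gene that GENCODE 29 names IQANK1 and annotates as protein-coding and for which RefSeq lists FAM83H-AS1 as a synonym. It had 7.37, 5.54 and 4.93 FPKM with shFAM83H-AS1_1, 8.56, 7.92 and 7.46 FPKM with shFAM83H-AS1_2, and 17.9, 17.5 and 14.3 FPKM with shNC. It was thus lower in each of the 6 knockdown libraries than in any control, with log2 changes of -1.35 (limma adjusted p = 0.00637) and -0.96 (limma adjusted p = 0.142). In fits of only the 2 groups compared, the first was not past the threshold (limma adjusted p = 0.0586, and 0.161 with a replicate block) and the second was (0.0149, and 0.0050 with the block). The second also passed with the GC trend of each library removed (limma adjusted p = 0.0281, and 0.0266 with the block) and without shFAM83H-AS1_1 replicate 3 (0.0180). Log2 changes throughout are of FPKM + 1 and are smaller than the change in FPKM for genes near 1 FPKM. They come from limma, fitted over the 11875 genes that reached 1 FPKM in 3 or more of the 9 libraries, with a threshold of 0.05 on the Benjamini-Hochberg adjusted p over those genes. The epithelial markers EPCAM, KRT8, KRT18, KRT19, CDH1, KRT5 and KRT17 summed to 1941 to 4064 FPKM with shFAM83H-AS1_1, 1788 to 1939 FPKM with shFAM83H-AS1_2 and 1304 to 1619 FPKM with shNC. The 7 markers of other cell types in the table summed to 2.07 to 3.23, 1.79 to 3.22 and 1.14 to 1.80 FPKM in the same order of groups, most of it COL1A1, and the immune markers PTPRC and CD3E reached at most 0.00714 and 0.0239 FPKM in any library. In bulk RNA, fewer cells of a kind and less RNA per cell cannot be told apart.

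Promoter sequence is shown for both SREBP genes and for HMGCS1 and IDI1, a pair of mevalonate genes that were lower with each hairpin. The 250 bases before the gene start come from RefSeq (GRCh38.p14) and are written 5′ to 3′ on the gene's strand. Capitals mark a CCAAT box, the binding letters of NF-Y, on either strand (CCAAT or ATTGG), and the sterol regulatory element letters TCACNCCAC. The windows are chr5:43313413-43313662 (minus strand) for HMGCS1, chr10:1049120-1049369 (minus) for IDI1, chr22:41832855-41833104 (plus) for SREBF2 and chr17:17836987-17837236 (minus) for SREBF1.
HMGCS1: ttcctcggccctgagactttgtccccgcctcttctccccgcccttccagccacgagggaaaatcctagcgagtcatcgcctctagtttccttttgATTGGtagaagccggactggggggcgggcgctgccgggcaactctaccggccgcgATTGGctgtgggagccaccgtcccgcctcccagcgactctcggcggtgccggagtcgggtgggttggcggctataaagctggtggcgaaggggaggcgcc
IDI1: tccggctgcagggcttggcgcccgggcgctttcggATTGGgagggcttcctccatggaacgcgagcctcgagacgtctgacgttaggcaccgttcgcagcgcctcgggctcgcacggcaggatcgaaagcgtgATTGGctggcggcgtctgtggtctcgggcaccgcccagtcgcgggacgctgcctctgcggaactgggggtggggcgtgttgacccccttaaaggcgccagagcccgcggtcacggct
SREBF2: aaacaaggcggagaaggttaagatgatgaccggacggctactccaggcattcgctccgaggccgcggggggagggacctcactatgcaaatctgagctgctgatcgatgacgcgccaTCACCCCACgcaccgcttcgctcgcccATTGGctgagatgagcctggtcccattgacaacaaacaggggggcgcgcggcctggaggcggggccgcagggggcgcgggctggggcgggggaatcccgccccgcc
SREBF1: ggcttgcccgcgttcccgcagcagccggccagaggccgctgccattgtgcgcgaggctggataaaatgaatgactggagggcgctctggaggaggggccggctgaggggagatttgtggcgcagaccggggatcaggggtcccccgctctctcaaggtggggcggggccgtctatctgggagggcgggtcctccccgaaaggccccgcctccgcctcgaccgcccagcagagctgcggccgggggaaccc
The HMGCS1 and IDI1 windows each hold 2 CCAAT boxes, SREBF2 holds 1 CCAAT box and 1 sterol regulatory element, and SREBF1 holds 0 of either. Windows of 250 bases were found for 33 of the 38 genes. Of these, 21 (63.6%) held a CCAAT box on either strand, against 32.0% of 35116 RefSeq promoters. TCACNCCAC on either strand was held by 1 (3.03%), against 0.883%. Of the genes with a CCAAT box, ACLY, SCD, ELOVL1, ELOVL5, ACSL3 and ACSS2 are fatty acid genes, and all the others are sterol genes. The share within each list was not computed. The windows of the 33 genes are 1 per gene, at the RefSeq start nearest the 5′ end of the gene, while the 35116 can include several starts of a gene. Other starts of the 33 genes were not examined. A match is a description of the letters only, and binding was not measured.

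In control cells the pathways were expressed over a wide range. SCD, which puts the double bond into stearoyl-CoA, had the highest level, 128 ± 30.8 FPKM with shNC (SD, n = 3). Next came FDFT1, the squalene synthase, at 96.3 ± 6.28 FPKM, and FASN, the fatty acid synthase, at 94.3 ± 21.9 FPKM (SD, n = 3 each). These 3 levels overlap within their spread. Below them lay DHCR7, which makes the final reduction to cholesterol (69.8 ± 2.19 FPKM), ACLY, which splits citrate into acetyl-CoA (63.3 ± 3.57 FPKM), and ELOVL1, an elongase of very long chains (56.8 ± 4.03 FPKM, SD, n = 3 each). DHCR7 and ACLY did not overlap in their mean ± SD, while ACLY and ELOVL1 did. The median over the 22 sterol genes was 15.1 FPKM and over the 16 fatty acid genes 17.9 FPKM. The mRNAs of the regulators SREBF2 and SREBF1 stood at almost the same level in controls, 27.1 ± 0.562 and 27.1 ± 1.85 FPKM (SD, n = 3 each).

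The lowest level of each list did not reach the filter, which left 36 genes to test, 21 sterol and 15 fatty acid. FADS2, a desaturase of polyunsaturated fatty acids, had 0.532, 0.544 and 0.551 FPKM with shFAM83H-AS1_1, 0.440, 0.485 and 0.576 FPKM with shFAM83H-AS1_2 and 0.547, 0.441 and 0.604 FPKM with shNC. CYP51A1, the lanosterol demethylase, had 0.612, 0.282 and 0.337 FPKM with shFAM83H-AS1_1, 0.394, 0.398 and 0.348 FPKM with shFAM83H-AS1_2 and 0.324, 0.334 and 0.391 FPKM with shNC. Both overlapped between all groups. The CYP51A1 value is uncertain, since 83.2% of its exonic bases in GENCODE 29 are shared with other genes, 2844 bases of them with AC000120.2 on the same strand, and it rests on 18 to 35 reads per library. ACAT2, which joins acetyl-CoA units for the sterol pathway, shares 52.3% of its exonic bases with neighbours, FDPS 18.6%, HMGCS1 15.0% and IDI1 14.8%, and the other members under 8%. The strand setting of the counting is not given in the sources used here, so reads in these overlaps may belong to either gene. For CYP51A1 and AC000120.2, on the same strand, no strand setting would separate them.

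Of the 36 tested genes, 0 passed the adjusted threshold in limma with shFAM83H-AS1_1 against shNC, where 1.57% of all genes did. With shFAM83H-AS1_2 against shNC, 0 passed, against 0.0253% of all genes, and between the hairpins 0 passed, against 0.0926%. At an unadjusted p under 0.05 there were 14 (7 higher, 7 lower) with shFAM83H-AS1_1, or 38.9%, where all genes gave 25.3%. There were 5 with shFAM83H-AS1_2 (2 higher, 3 lower), or 13.9%, where all genes gave 6.68%, and 3 between the hairpins (1 higher and 2 lower with shFAM83H-AS1_2), where all genes gave 8.0%. With limma voom on recovered reads, also 0 members passed in each comparison.

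As lists, neither pathway had a common direction. The sterol genes had a median log2 change of 0.02 with shFAM83H-AS1_1 (11 of 21 positive) and -0.07 with shFAM83H-AS1_2 (9 of 21 positive). The fatty acid genes had 0.16 (9 of 15 positive) and -0.09 (5 of 15 positive). Over all genes tested the medians were -0.08 and -0.01, with 42.0% and 48.2% of genes positive. Single genes within the sterol list spread from -0.83 (IDI1) to 0.64 (AACS) with shFAM83H-AS1_1, and those of the fatty acid list from -0.67 (ELOVL6) to 1.08 (PLIN2). With shFAM83H-AS1_2 the ranges were narrower, -0.60 to 0.44 and -0.38 to 0.53. Groups were apart, every library of a hairpin on 1 side of every shNC library, for 6 genes higher (16.7%, against 14.4% of all genes) and 6 lower (16.7%, against 15.3%) with shFAM83H-AS1_1. With shFAM83H-AS1_2 they were apart for 5 genes higher (13.9%, against 11.1%) and 8 lower (22.2%, against 10.9%). Among the 21 sterol genes, 3 were higher and 5 lower with shFAM83H-AS1_1 (14.3% and 23.8%). With shFAM83H-AS1_2, 3 sterol genes were higher and 6 lower (14.3% and 28.6%). Among the 15 fatty acid genes, 3 were higher and 1 lower with shFAM83H-AS1_1 (20% and 6.67%). With shFAM83H-AS1_2, 2 fatty acid genes were higher and 2 lower (13.3% each). Both hairpins were compared with the same 3 control libraries, and the share of all genes apart on the same side with both was not counted.

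**Figure D1:**
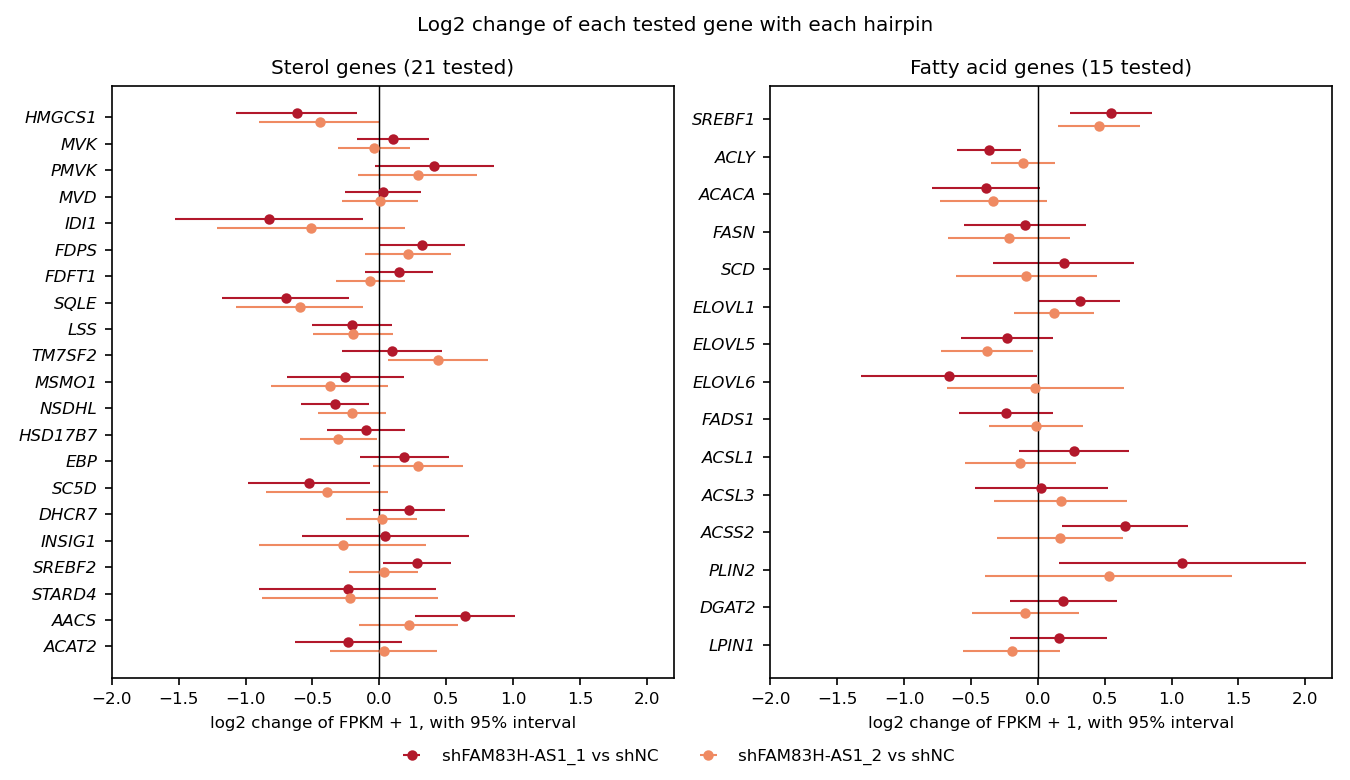
Log2 change of FPKM + 1 with its 95% interval for each of the 36 tested genes (rows, in pathway order), for shFAM83H-AS1_1 against shNC (dark red) and shFAM83H-AS1_2 against shNC (orange). The points of HMGCS1, IDI1 and SQLE lie left of 0 with each hairpin, and those of AACS, SREBF1, PLIN2, PMVK and FDPS right of it. Most intervals cross 0, and no gene passes the adjusted threshold.

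Among the regulators, SREBF1 mRNA was higher in every knockdown library. SREBF1 (ENSG00000072310, hg38 chromosome 17, 17810399 to 17837011, minus strand), which encodes SREBP-1, had 40.7, 35.9 and 44.0 FPKM with shFAM83H-AS1_1, 31.7, 38.7 and 43.1 FPKM with shFAM83H-AS1_2 and 25.1, 28.7 and 27.7 FPKM with shNC. All 6 knockdown libraries lay above all 3 controls, at 148% and 139% of the control mean. With limma these were log2 changes of 0.55 (95% interval 0.24 to 0.85, limma adjusted p = 0.0711) and 0.46 (0.15 to 0.76, limma adjusted p = 0.556), neither past the threshold. Without shFAM83H-AS1_1 replicate 3 the first was 0.48 (limma adjusted p = 0.116). Without shFAM83H-AS1_1 replicate 2 it was 0.63 and passed (limma adjusted p = 0.0400), in a fit where 8.49% of all genes passed.

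SREBF2, which encodes SREBP-2, had 32.8, 30.4 and 37.0 FPKM with shFAM83H-AS1_1, 25.6, 27.5 and 30.3 FPKM with shFAM83H-AS1_2 and 26.5, 27.4 and 27.6 FPKM with shNC. The libraries of shFAM83H-AS1_1 all lay above the controls, and those of shFAM83H-AS1_2 lay on both sides of them. Log2 changes were 0.29 (95% interval 0.03 to 0.54, limma adjusted p = 0.167) and 0.03 (-0.22 to 0.29, limma adjusted p = 0.968).

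INSIG1, a sterol-sensing retention protein and itself an SREBP target, had 14.8, 22.5 and 13.9 FPKM with shFAM83H-AS1_1, 12.6, 9.13 and 19.7 FPKM with shFAM83H-AS1_2 and 13.1, 14.9 and 21.5 FPKM with shNC. Its libraries spread widely within each group, and the groups overlapped. INSIG1 had log2 changes of 0.04 (95% interval -0.58 to 0.67, limma adjusted p = 0.928) and -0.27 (-0.90 to 0.35, limma adjusted p = 0.871). Of 12 further genes of SREBP processing and sterol sensing, 0 passed with either hairpin, 7 being positive with shFAM83H-AS1_1 and 6 with shFAM83H-AS1_2. NR1H3, the oxysterol receptor LXR alpha, averaged 13.0, 10.7 and 8.54 FPKM with shFAM83H-AS1_1, shFAM83H-AS1_2 and shNC (log2 change 0.53, limma adjusted p = 0.117, and 0.30, limma adjusted p = 0.767). ERLIN1, an endoplasmic reticulum protein that helps retain SREBPs, averaged 12.7, 14.1 and 17.9 FPKM in the same order (-0.46, limma adjusted p = 0.142, and -0.33, limma adjusted p = 0.758). SCAP and INSIG2 were looked up for their roles, after values had been seen. SCAP had log2 changes of 0.25 and 0.14 (limma adjusted p = 0.267 and 0.869), and INSIG2 had 0.59 and 0.19 (limma adjusted p = 0.217 and 0.921).

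In the mevalonate segment, HMGCS1 and IDI1 were lower in every knockdown library than in any control. HMGCS1 (ENSG00000112972, hg38 chromosome 5, 43287470 to 43313512, minus strand), which condenses acetyl-CoA and acetoacetyl-CoA, had 6.85, 6.61 and 3.41 FPKM with shFAM83H-AS1_1, 6.63, 5.72 and 6.35 FPKM with shFAM83H-AS1_2 and 8.69, 9.05 and 8.76 FPKM with shNC. The means were 63.7% and 70.6% of control. Its log2 changes were -0.62 (95% interval -1.07 to -0.16, limma adjusted p = 0.121) and -0.44 (-0.90 to 0.01, limma adjusted p = 0.736). The lowest library was shFAM83H-AS1_1 replicate 3, without which the first change was -0.35 (limma adjusted p = 0.140).

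IDI1 (hg38 chromosome 10, 1039152 to 1049170, minus strand) interconverts the pair of isoprenoid building blocks. It had 8.61, 13.1 and 4.0 FPKM with shFAM83H-AS1_1, 10.2, 7.89 and 12.2 FPKM with shFAM83H-AS1_2 and 14.1, 13.3 and 16.5 FPKM with shNC. The groups were apart, although shFAM83H-AS1_1 replicate 2 came close to the lowest control. Log2 changes were -0.83 (limma adjusted p = 0.154) and -0.51 (limma adjusted p = 0.781). The first was -0.42 without shFAM83H-AS1_1 replicate 3 (limma adjusted p = 0.308). Without shFAM83H-AS1_1 replicate 2, where 8.49% of all genes passed, it was -1.17 and passed (limma adjusted p = 0.0374).

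The other mevalonate genes had no common direction. MVK, mevalonate kinase, averaged 7.55 ± 0.820, 6.71 ± 0.498 and 6.92 ± 0.0955 FPKM with shFAM83H-AS1_1, shFAM83H-AS1_2 and shNC (SD, n = 3 each), with log2 changes of 0.11 (95% interval -0.16 to 0.37) and -0.04 (-0.31 to 0.23). MVD, the decarboxylase, averaged 22.7, 22.3 and 22.2 FPKM in the same order, with changes of 0.02 (-0.26 to 0.31) and 0.00 (-0.28 to 0.29). PMVK, the phosphomevalonate kinase, averaged 56.7, 51.9 and 42.8 FPKM (0.41 and 0.29), and FDPS, which joins isoprenoid units to farnesyl pyrophosphate, 16, 14.7 and 12.5 FPKM (0.32 and 0.21). FDPS had an unadjusted limma p of 0.0496 with shFAM83H-AS1_1 over 9 libraries (adjusted p = 0.197). ACAT2 averaged 14.5, 17.7 and 17.4 FPKM (-0.23 and 0.03).

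AACS, which activates acetoacetate from ketone bodies for lipid synthesis, lay on the other side of control from HMGCS1. It had 7.69, 6.87 and 11.5 FPKM with shFAM83H-AS1_1, 5.87, 5.90 and 6.52 FPKM with shFAM83H-AS1_2 and 4.93, 5.28 and 5.08 FPKM with shNC. The 3 groups did not overlap, with shFAM83H-AS1_1 highest and shNC lowest. AACS had log2 changes of 0.64 (95% interval 0.26 to 1.01, limma adjusted p = 0.0797) and 0.22 (-0.16 to 0.59, limma adjusted p = 0.827). Directly between the hairpins, shFAM83H-AS1_2 minus shFAM83H-AS1_1 was -0.42 (limma adjusted p = 0.591). Without shFAM83H-AS1_1 replicate 3, the first change was 0.44 (limma adjusted p = 0.0823). Without shFAM83H-AS1_1 replicate 2, where 8.49% of all genes passed, it was 0.77 and passed (limma adjusted p = 0.0349).

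Isoprenoids also feed ubiquinone, dolichol and prenylated proteins. Of 13 tested genes of these branches and of remaining sterol enzymes, 12 had a negative log2 change with shFAM83H-AS1_1 (median -0.13) and 9 with shFAM83H-AS1_2 (median -0.11), and 0 passed. Among all genes tested, 42.0% and 48.2% were positive with shFAM83H-AS1_1 and shFAM83H-AS1_2. NUS1, a subunit of the dolichol-forming prenyltransferase, averaged 13.9, 19.8 and 25.1 FPKM with shFAM83H-AS1_1, shFAM83H-AS1_2 and shNC (log2 change -0.85, limma adjusted p = 0.0668, and -0.33, limma adjusted p = 0.783). PDSS1, which makes the ubiquinone side chain, averaged 3.95, 5.29 and 7.09 FPKM in the same order (-0.74, limma adjusted p = 0.0762, and -0.36, limma adjusted p = 0.758).

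**Figure D2:**
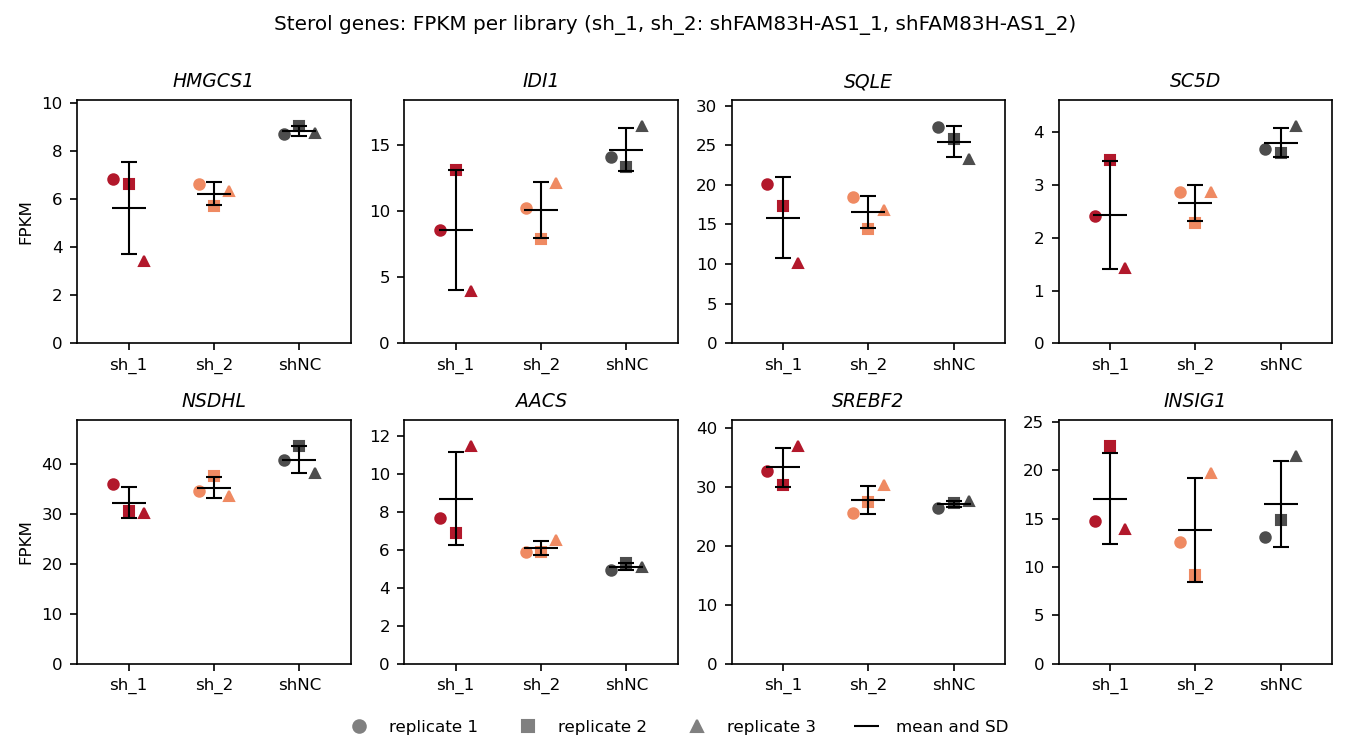
FPKM of 8 sterol genes in each of 9 libraries; points are libraries with a marker per replicate number, lines the mean and SD of 3, and each axis starts at 0. For HMGCS1, IDI1, SQLE, SC5D and NSDHL the 6 knockdown libraries lie below the 3 shNC libraries, for AACS they lie above, and INSIG1 overlaps between all groups.

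At the entry to the sterol ring, SQLE was lower and its neighbours were near control. SQLE, squalene epoxidase (hg38 chromosome 8, 124998497 to 125022283, plus strand), had 20.04, 17.3 and 10.2 FPKM with shFAM83H-AS1_1, 18.4, 14.4 and 16.8 FPKM with shFAM83H-AS1_2 and 27.3, 25.8 and 23.3 FPKM with shNC. The 6 knockdown libraries all lay below the controls, at 62.3% and 65.0% of the control mean. The log2 changes were -0.70 (95% interval -1.17 to -0.22, limma adjusted p = 0.105) and -0.60 (-1.07 to -0.12, limma adjusted p = 0.625). Without shFAM83H-AS1_1 replicate 3 the first was -0.43 (limma adjusted p = 0.139). FDFT1, one step before SQLE, averaged 107 ± 8.69, 92.0 ± 8.42 and 96.3 ± 6.28 FPKM with shFAM83H-AS1_1, shFAM83H-AS1_2 and shNC (SD, n = 3 each), with log2 changes of 0.15 (95% interval -0.11 to 0.40) and -0.07 (-0.32 to 0.19). LSS, which closes the ring to lanosterol, averaged 22.2, 22.2 and 25.5 FPKM in the same order (-0.20 and -0.19).

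The enzymes that trim lanosterol to cholesterol had no common direction. NSDHL, a decarboxylase of the methyl groups, had 36, 30.7 and 30.3 FPKM with shFAM83H-AS1_1, 34.7, 37.6 and 33.6 FPKM with shFAM83H-AS1_2 and 40.9, 43.7 and 38.2 FPKM with shNC. SC5D, the lathosterol desaturase, had 2.41, 3.46 and 1.43 FPKM with shFAM83H-AS1_1, 2.86, 2.27 and 2.87 FPKM with shFAM83H-AS1_2 and 3.67, 3.61 and 4.12 FPKM with shNC. Both were below every control in all 6 knockdown libraries, SC5D of shFAM83H-AS1_1 replicate 2 and NSDHL of shFAM83H-AS1_2 replicate 2 by little. NSDHL had log2 changes of -0.33 (limma adjusted p = 0.126) and -0.21 (limma adjusted p = 0.764). SC5D had -0.52 (limma adjusted p = 0.160) and -0.39 (limma adjusted p = 0.758). The first SC5D change was -0.30 without shFAM83H-AS1_1 replicate 3. It was -0.74 and past the threshold without shFAM83H-AS1_1 replicate 2 (limma adjusted p = 0.0432), where 8.49% of all genes passed.

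The next genes were apart from control with shFAM83H-AS1_2 alone of the hairpins, which does not show that the hairpins differ. TM7SF2, a sterol reductase, had 1.71, 1.08 and 1.47 FPKM with shFAM83H-AS1_1, 2.30, 2.24 and 1.66 FPKM with shFAM83H-AS1_2 and 1.57, 1.26 and 0.971 FPKM with shNC. It rests on 58 to 137 reads per library, and its log2 changes were 0.09 (limma adjusted p = 0.729) and 0.44 (limma adjusted p = 0.678). Taken directly, shFAM83H-AS1_2 minus shFAM83H-AS1_1 was 0.34 (limma adjusted p = 0.641).

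HSD17B7, the ketoreductase that acts after NSDHL, had 3.38, 3.94 and 3.26 FPKM with shFAM83H-AS1_1, 2.67, 2.85 and 3.25 FPKM with shFAM83H-AS1_2 and 3.97, 3.51 and 4.06 FPKM with shNC (log2 changes -0.10 and -0.31, limma adjusted p = 0.625 and 0.720). EBP, the sterol isomerase, had 21.2, 17.6 and 15.3 FPKM with shFAM83H-AS1_1, 17.4, 22.8 and 18.1 FPKM with shFAM83H-AS1_2 and 17, 14.7 and 15.2 FPKM with shNC (0.19 and 0.29, limma adjusted p = 0.429 and 0.758). Every shFAM83H-AS1_2 library was thus below control for HSD17B7 and above it for EBP, while the shFAM83H-AS1_1 libraries overlapped control in both. DHCR7 averaged 81.8 ± 8.44, 70.8 ± 7.33 and 69.8 ± 2.19 FPKM with shFAM83H-AS1_1, shFAM83H-AS1_2 and shNC (SD, n = 3 each; 0.22 and 0.02), and MSMO1, the methyl sterol oxidase, averaged 9.78 ± 1.92, 9.07 ± 2.43 and 11.8 ± 1.06 FPKM (SD, n = 3 each; -0.26 and -0.37). Neither passed (limma adjusted p = 0.265 and 0.985 for DHCR7, 0.409 and 0.758 for MSMO1).

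Of 14 tested genes of cholesterol uptake, transport and storage, 0 passed with either hairpin, with 8 positive with shFAM83H-AS1_1 and 4 with shFAM83H-AS1_2. LRP8, a lipoprotein receptor, averaged 2.23, 3.14 and 4.36 FPKM with shFAM83H-AS1_1, shFAM83H-AS1_2 and shNC (log2 change -0.76, limma adjusted p = 0.0698, and -0.37, limma adjusted p = 0.758). TMEM97, a sterol-regulated membrane protein, averaged 14.7, 17.5 and 22 FPKM in the same order (-0.58, limma adjusted p = 0.113, and -0.31, limma adjusted p = 0.767).

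In the supply of acetyl-CoA for fatty acids, ACLY was lower and ACSS2 higher with shFAM83H-AS1_1. ACLY (hg38 chromosome 17, 41866917 to 41930542, minus strand) had 54.1, 45.5 and 47.4 FPKM with shFAM83H-AS1_1, 58.2, 60.0 and 57.3 FPKM with shFAM83H-AS1_2 and 66.3, 59.4 and 64.4 FPKM with shNC. The shFAM83H-AS1_1 libraries lay below all others, and shFAM83H-AS1_2 overlapped control. The log2 changes were -0.37 (95% interval -0.60 to -0.13, limma adjusted p = 0.0961) and -0.11 (-0.35 to 0.13, limma adjusted p = 0.869), and shFAM83H-AS1_2 minus shFAM83H-AS1_1 was 0.25 (limma adjusted p = 0.602). ACLY was the member that passed when the trend of each library with GC content was removed (-0.38, limma adjusted p = 0.0431), where 4.95% of all genes passed. With the replicate block added to that removal ACLY missed the threshold (limma adjusted p = 0.0525), and AACS, ACSL1 and ACSS2 passed, where 6.24% of all genes did.

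ACSS2, which makes acetyl-CoA from acetate, had 23.8, 26.9 and 40.0 FPKM with shFAM83H-AS1_1, 18.9, 18.1 and 25.8 FPKM with shFAM83H-AS1_2 and 19.0, 15.2 and 21.4 FPKM with shNC. All shFAM83H-AS1_1 libraries were above control, replicate 3 the most. The log2 changes were 0.65 (95% interval 0.18 to 1.13, limma adjusted p = 0.117; 0.44 without shFAM83H-AS1_1 replicate 3) and 0.16 (-0.31 to 0.64, limma adjusted p = 0.910). Of 18 tested genes of other fatty acid synthesis and elongation, 1 passed (5.56%, against 1.57% of all genes), SLC25A1, the mitochondrial citrate carrier that exports the substrate of ACLY. SLC25A1 rose to 49.1, 47.5 and 64.8 FPKM with shFAM83H-AS1_1, against 31.7, 32.7 and 31.4 FPKM with shNC, and had 37.2, 48.0 and 43.5 FPKM with shFAM83H-AS1_2. Its log2 changes were 0.72 (limma adjusted p = 0.0444) and 0.41 (limma adjusted p = 0.606), with both hairpins above every control. The call with shFAM83H-AS1_1 was lost in 7 of the 9 fits that left out 1 library and held without shFAM83H-AS1_1 replicate 2 or replicate 3. Over those 9 fits the log2 change ranged from 0.58 to 0.80 and the limma adjusted p from 0.0317 (without shFAM83H-AS1_1 replicate 2) to 0.177 (without shNC replicate 1).

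ACACA and FASN were near or below control. ACACA, acetyl-CoA carboxylase, had 10.7, 8.32 and 5.71 FPKM with shFAM83H-AS1_1, 8.35, 8.33 and 8.39 FPKM with shFAM83H-AS1_2 and 10.5, 10.5 and 11.4 FPKM with shNC. FASN had 109, 82.6 and 72.3 FPKM with shFAM83H-AS1_1, 67.7, 95.8 and 77.9 FPKM with shFAM83H-AS1_2 and 87.6, 119 and 76.5 FPKM with shNC. ACACA was below control in all 3 shFAM83H-AS1_2 libraries and in 2 of 3 with shFAM83H-AS1_1, and FASN overlapped between all groups. The log2 changes of ACACA were -0.39 (limma adjusted p = 0.208; -0.18 without shFAM83H-AS1_1 replicate 3) and -0.33 (limma adjusted p = 0.760). Those of FASN were -0.09 (95% interval -0.55 to 0.36) and -0.22 (-0.67 to 0.24), with limma adjusted p of 0.775 and 0.869.

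Among elongases and desaturases, ELOVL6, which lengthens palmitate, had 3.88, 5.30 and 1.46 FPKM with shFAM83H-AS1_1, 5.44, 5.49 and 5.99 FPKM with shFAM83H-AS1_2 and 5.52, 4.68 and 7.17 FPKM with shNC. Its log2 change of -0.67 with shFAM83H-AS1_1 (limma adjusted p = 0.194) was -0.28 without replicate 3, the lowest library. With shFAM83H-AS1_2 the log2 change was -0.02 (95% interval -0.68 to 0.64, limma adjusted p = 0.992). Each hairpin overlapped control in ELOVL6, while every shFAM83H-AS1_2 library lay above every shFAM83H-AS1_1 library, replicate 2 of shFAM83H-AS1_1 coming close. ELOVL5, an elongase of polyunsaturated fatty acids, had 20.4, 29 and 20.8 FPKM with shFAM83H-AS1_1, 21.6, 17.7 and 23.3 FPKM with shFAM83H-AS1_2 and 27.2, 27.1 and 27.5 FPKM with shNC. Its log2 changes were -0.23 (limma adjusted p = 0.353) and -0.38 (limma adjusted p = 0.692), below control in all 3 libraries of shFAM83H-AS1_2.

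ELOVL1 had 72.9, 60.3 and 80.1 FPKM with shFAM83H-AS1_1, 61.1, 69.2 and 55.9 FPKM with shFAM83H-AS1_2 and 61.3, 55.5 and 53.5 FPKM with shNC. Both hairpins overlapped control, with log2 changes of 0.31 (limma adjusted p = 0.187) and 0.12 (limma adjusted p = 0.886). SCD averaged 146 ± 24.9, 122 ± 38.5 and 128 ± 30.8 FPKM with shFAM83H-AS1_1, shFAM83H-AS1_2 and shNC (SD, n = 3 each), with log2 changes of 0.19 (95% interval -0.34 to 0.72) and -0.09 (-0.62 to 0.44). FADS1, another polyunsaturated desaturase, averaged 1.02, 1.35 and 1.39 FPKM in the same order (-0.24 and -0.01).

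Acyl-CoA synthetases, which activate fatty acids, overlapped between all groups in FPKM as deposited. ACSL1 averaged 29.5 ± 3.03, 22.3 ± 4.89 and 24.5 ± 5.22 FPKM with shFAM83H-AS1_1, shFAM83H-AS1_2 and shNC (SD, n = 3 each; log2 changes 0.27 and -0.13), and ACSL3, which also sits on new lipid droplets, averaged 18.1 ± 5.59, 19.9 ± 4.77 and 17.3 ± 1.81 FPKM (SD, n = 3 each; 0.03 and 0.17). DGAT2, the final enzyme of triglyceride synthesis, averaged 2.04 ± 0.612, 1.47 ± 0.196 and 1.65 ± 0.368 FPKM (SD, n = 3 each; 0.19 and -0.09). LPIN1, a phosphatidate phosphatase, had 2.66, 2.43 and 1.79 FPKM with shFAM83H-AS1_1, 1.5, 1.24 and 2.02 FPKM with shFAM83H-AS1_2 and 1.90, 1.89 and 2.03 FPKM with shNC. It overlapped control with each hairpin, with log2 changes of 0.16 (limma adjusted p = 0.539) and -0.20 (limma adjusted p = 0.847).

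PLIN2 (hg38 chromosome 9, 19108375 to 19149290, minus strand), a coat protein of lipid droplets, had the highest log2 change of FPKM + 1 of the 36 genes with each hairpin. With a pseudocount of 0.1, TM7SF2 (0.68) was above PLIN2 (0.59) with shFAM83H-AS1_2, as with voom (0.72 and 0.59). It had 7.88, 11.8 and 34.3 FPKM with shFAM83H-AS1_1, 9.47, 7.70 and 13.1 FPKM with shFAM83H-AS1_2 and 5.52, 7.31 and 6.84 FPKM with shNC. All 6 knockdown libraries were above every control, but shFAM83H-AS1_1 replicate 3 alone held the highest value by a wide gap. The log2 changes were 1.08 (95% interval 0.16 to 2.01, limma adjusted p = 0.155) and 0.53 (-0.39 to 1.46, limma adjusted p = 0.832), and the first was 0.51 without shFAM83H-AS1_1 replicate 3 (limma adjusted p = 0.260) and 1.5 without shFAM83H-AS1_1 replicate 1 (limma adjusted p = 0.0759).

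PLIN2 is also a gene that hypoxia is known to raise, and hypoxia genes varied with it from library to library. The mean log2 deviation of 13 hypoxia response genes from the shNC mean was 0.08, 0.61 and 1.75 in replicates 1, 2 and 3 of shFAM83H-AS1_1, 0.60, 0.32 and 0.98 with shFAM83H-AS1_2 and -0.20, 0.15 and 0.05 with shNC. CA9, a carbonic anhydrase, had 6.22, 10.7 and 52.8 FPKM with shFAM83H-AS1_1, 9.13, 10.6 and 21.2 FPKM with shFAM83H-AS1_2 and 0.986, 6.48 and 1.43 FPKM with shNC. NDRG1 had 35.7, 67.1 and 218 FPKM with shFAM83H-AS1_1, 67.4, 48.6 and 93.7 FPKM with shFAM83H-AS1_2 and 18.3, 33.7 and 26.7 FPKM with shNC. Of these 13 genes, 12 were positive with shFAM83H-AS1_1 (median log2 change 0.75) and 13 with shFAM83H-AS1_2 (median 0.51). Over all genes tested the medians were -0.08 and -0.01, with 42.0% and 48.2% of genes positive. None of the 13 hypoxia genes passed with either hairpin (limma adjusted p = 0.105 and 0.603 for CA9, 0.121 and 0.682 for NDRG1), and their part in the PLIN2 values was not tested.

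Of 15 tested genes of glycerolipid synthesis, droplet coat and lipolysis, 0 passed, with 11 positive with shFAM83H-AS1_1 (median 0.23) and 10 with shFAM83H-AS1_2 (median 0.13). PNPLA2, the adipose triglyceride lipase, averaged 13.9, 11.4 and 8.99 FPKM with shFAM83H-AS1_1, shFAM83H-AS1_2 and shNC (log2 change 0.58, limma adjusted p = 0.0603, and 0.32, limma adjusted p = 0.700). PLIN5, a droplet protein of oxidative tissue, averaged 1.46, 0.746 and 0.579 FPKM in the same order (0.62, limma adjusted p = 0.0896, and 0.14, limma adjusted p = 0.900). Of 16 tested genes of fatty acid oxidation 0 passed, with 13 and 10 positive and medians of 0.14 and 0.07. Among all genes tested, 42.0% and 48.2% were positive. ECI2, an enoyl-CoA isomerase, had log2 changes of 0.44 (limma adjusted p = 0.161) and 0.15 (limma adjusted p = 0.889), and PPARA, the nuclear receptor that drives oxidation genes, had -0.33 (limma adjusted p = 0.189) and -0.17 (limma adjusted p = 0.852).

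**Figure D3:**
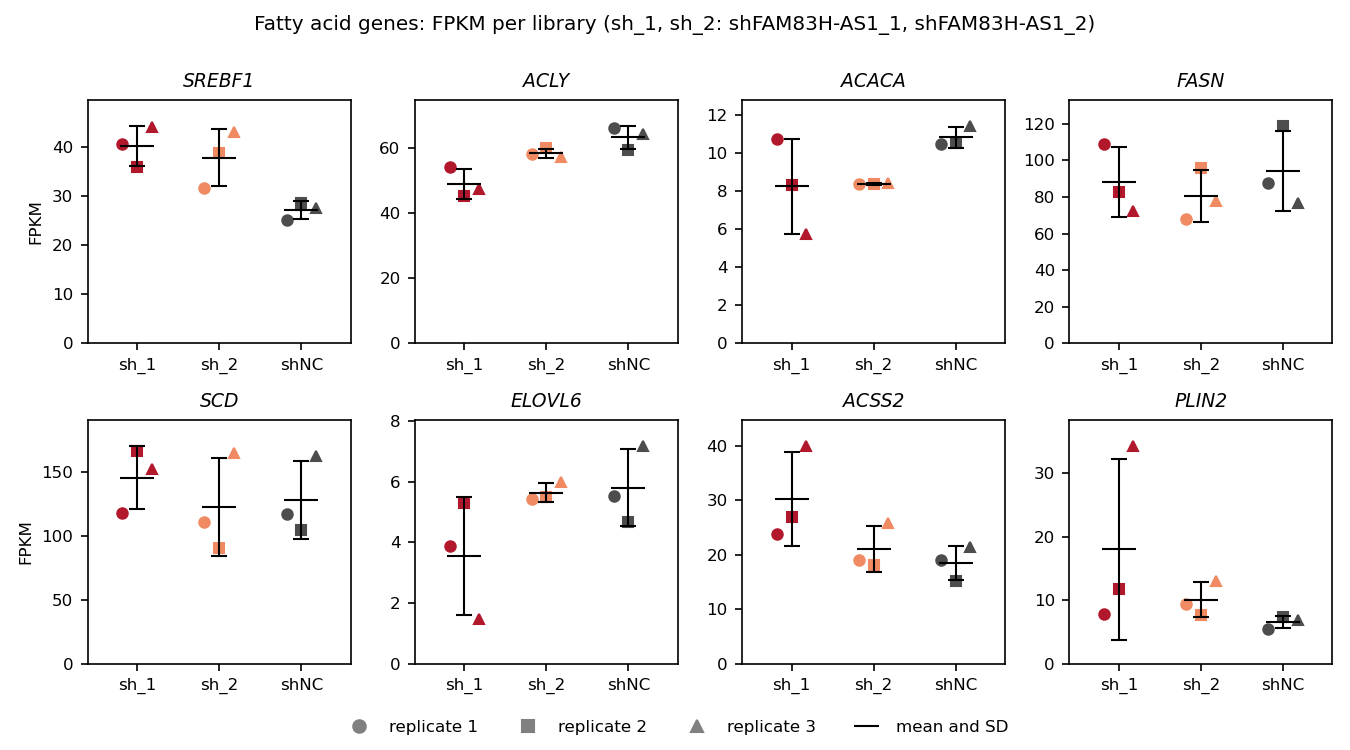
FPKM of 8 fatty acid genes in each of 9 libraries; points are libraries with a marker per replicate number, lines the mean and SD of 3, and each axis starts at 0. SREBF1 and PLIN2 lie above shNC in all 6 knockdown libraries, ACLY lies below it with shFAM83H-AS1_1, and the PLIN2 mean of shFAM83H-AS1_1 rests on replicate 3 at 34.3 FPKM.

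Without shFAM83H-AS1_1 replicate 3, the log2 change with shFAM83H-AS1_1 moved by more than 1.5 times in 17 of the 36 genes. HMGCS1, IDI1, SQLE, SC5D, ACACA, ELOVL6 and PLIN2, given above, were closer to 0 without it. So were LSS (-0.13 without it), FDFT1 (0.08) and HSD17B7 (-0.06). EBP (0.29), LPIN1 (0.27), ACSL3 (0.24) and INSIG1 (0.17) were farther from 0. The sign turned for STARD4 (-0.24 with it, 0.01 without), FASN (-0.09, 0.03) and MVD (0.02, -0.03).

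Same-numbered libraries of shFAM83H-AS1_2 and shNC deviated from their group means together (correlations across genes of 0.20, 0.35 and 0.39), and unlike numbers gave -0.37 to -0.003. Some unlike-numbered libraries of other groups did so as strongly. These were shFAM83H-AS1_1 replicate 2 with shNC replicate 3 (0.445) and with shFAM83H-AS1_2 replicate 3 (0.441). A fit of the 6 libraries of shFAM83H-AS1_2 and shNC took the replicate number as a block, although the labels name no shared batch. It tests the very values from which the pairs were read. In it 4 of 36 members passed (11.1%), where 617 of all genes did (5.2%). HMGCS1 (limma adjusted p = 0.0343), IDI1 (0.0288) and SQLE (0.0221) were lower with shFAM83H-AS1_2, and SREBF1 (0.0352) was higher. Their log2 changes are those given above, -0.44, -0.51, -0.60 and 0.46. With the block over all 9 libraries, 0 members passed, and the numbers of shFAM83H-AS1_1 do not pair with those of shNC (0.18, -0.39 and -0.25).

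The log2 changes of the sterol genes followed the GC content of their transcripts. Over the 21 tested sterol genes, Spearman's rho between GC content and log2 change was 0.64 with shFAM83H-AS1_1 and 0.75 with shFAM83H-AS1_2, over the 15 fatty acid genes 0.36 and 0.17, and over 11835 genes 0.45 and 0.42. These are descriptions across genes that share the same libraries. Of the 12 sterol genes above the median GC content of all genes (48.8%), 9 were positive with each hairpin, and of the 9 below it 2 were positive with shFAM83H-AS1_1 and 0 with shFAM83H-AS1_2. HMGCS1 has 40.2% GC, IDI1 41.1%, SC5D 38.6% and SQLE 46.5%, while SREBF1 has 62.8% and AACS 52.8%. Each library had its own trend of level with GC content, with rho of 0.29, -0.48 and 0.52 in replicates 1, 2 and 3 of shFAM83H-AS1_1, -0.13, 0.58 and -0.38 with shFAM83H-AS1_2 and -0.40, -0.04 and -0.60 with shNC.

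With the trend of each library removed, rho over the sterol genes was 0.24 and 0.53. The log2 change of HMGCS1 was then -0.35 and -0.32, of IDI1 -0.58 and -0.40, of SQLE -0.58 and -0.55, and of SC5D -0.23 and -0.25. SREBF1 had 0.40 and 0.34, AACS 0.62 and 0.18, and PLIN2 1.14 and 0.54. These 7 genes kept their sign with both hairpins, and HMGCS1 with shFAM83H-AS1_1 and SC5D with each hairpin were smaller by more than 1.5 times. Of all 36 genes, 30 kept their sign with shFAM83H-AS1_1 and 32 with shFAM83H-AS1_2. With shFAM83H-AS1_1 the sign turned for MSMO1 (-0.26 as deposited, 0.05 with the trend removed), STARD4 (-0.24, 0.10), HSD17B7 (-0.10, 0.13), MVD (0.02, -0.13), MVK (0.11, -0.0032) and TM7SF2 (0.09, -0.06). ELOVL5 (-0.23 as deposited) kept its sign but came to -3.1e-05. With shFAM83H-AS1_2 it turned for DHCR7 (0.02, -0.08), ELOVL6 (-0.02, 0.09), MVD (0.00, -0.12) and SREBF2 (0.03, -0.05). Several changes grew with the trend removed, given here for shFAM83H-AS1_1 and then shFAM83H-AS1_2. ACSL3 went from 0.03 and 0.17 to 0.33 and 0.31 (limma adjusted p = 0.0843 and 0.435). Every knockdown library then lay above every control for ACSL3. FASN went from -0.09 and -0.22 to -0.26 and -0.35, and LSS from -0.20 and -0.19 to -0.31 and -0.28. How far GC content, the library that stood apart and the hairpins each account for the sterol values was not tested.

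**Figure D4:**
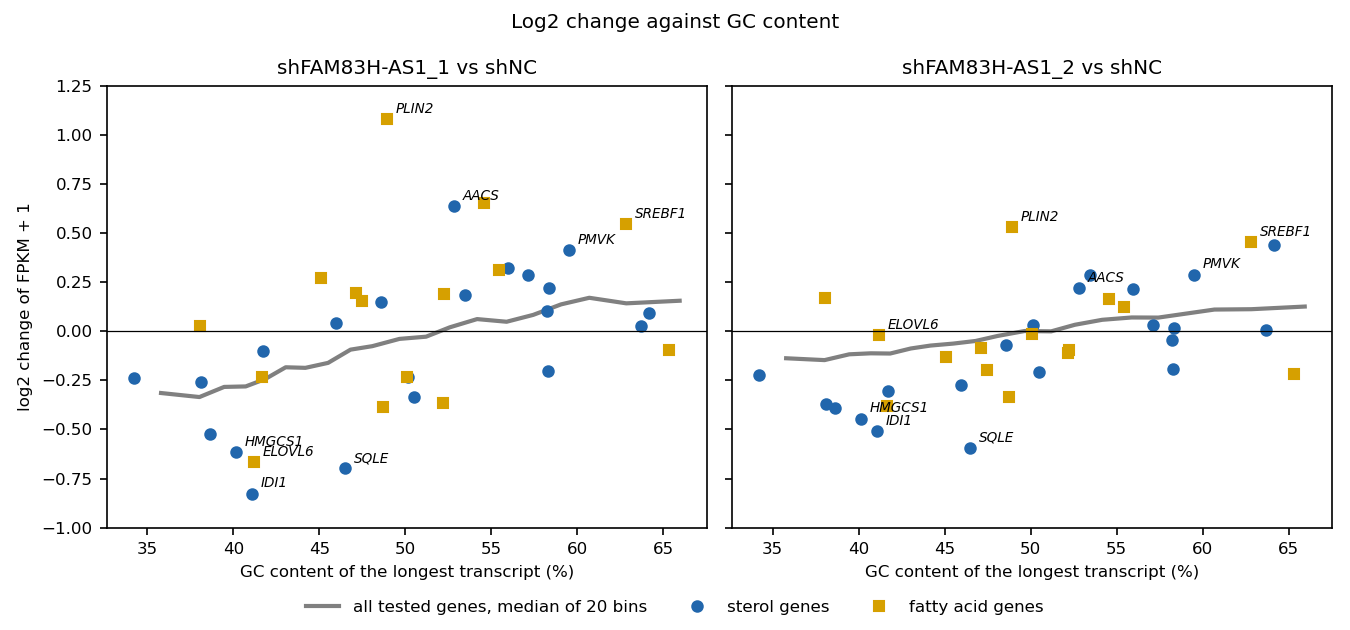
Log2 change of FPKM + 1 against GC content of the longest transcript for 21 sterol genes (blue circles) and 15 fatty acid genes (yellow squares), with the median over all tested genes in 20 bins of GC content (grey line), for each hairpin against shNC. HMGCS1 and IDI1 lie below 0 and below the line and AACS and SREBF1 above both with each hairpin, while MSMO1, STARD4 and HSD17B7, also of low GC content, lie above the line with shFAM83H-AS1_1 and below it with shFAM83H-AS1_2.

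Some genes varied more between replicates than between groups, and in the same libraries. INSIG1, STARD4, a carrier that moves sterol between membranes, and SCD were singled out here after their values were seen. STARD4 had 1.11, 2.19 and 0.539 FPKM with shFAM83H-AS1_1, 0.949, 0.821 and 2.01 FPKM with shFAM83H-AS1_2 and 1.38, 1.13 and 2.34 FPKM with shNC. SCD had 118, 167 and 153 FPKM with shFAM83H-AS1_1, 111, 91.0 and 165 FPKM with shFAM83H-AS1_2 and 117, 105 and 163 FPKM with shNC. For INSIG1, STARD4 and SCD alike, the highest library of each group was replicate 2 of shFAM83H-AS1_1, replicate 3 of shFAM83H-AS1_2 and replicate 3 of shNC. These are also the libraries with the lowest GC trend in their groups, and with that trend removed INSIG1 in them still stood at 0.50, 0.32 and 0.36 and SCD at 0.36, 0.34 and 0.25 on the log2 scale above the mean of 9 libraries. The highest SCD library of shFAM83H-AS1_1 was then replicate 3, at 0.41. STARD4 stood at 0.21, 0.11 and 0.23, against 0.46, 0.38 and 0.53 before removal.

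**Figure D5:**
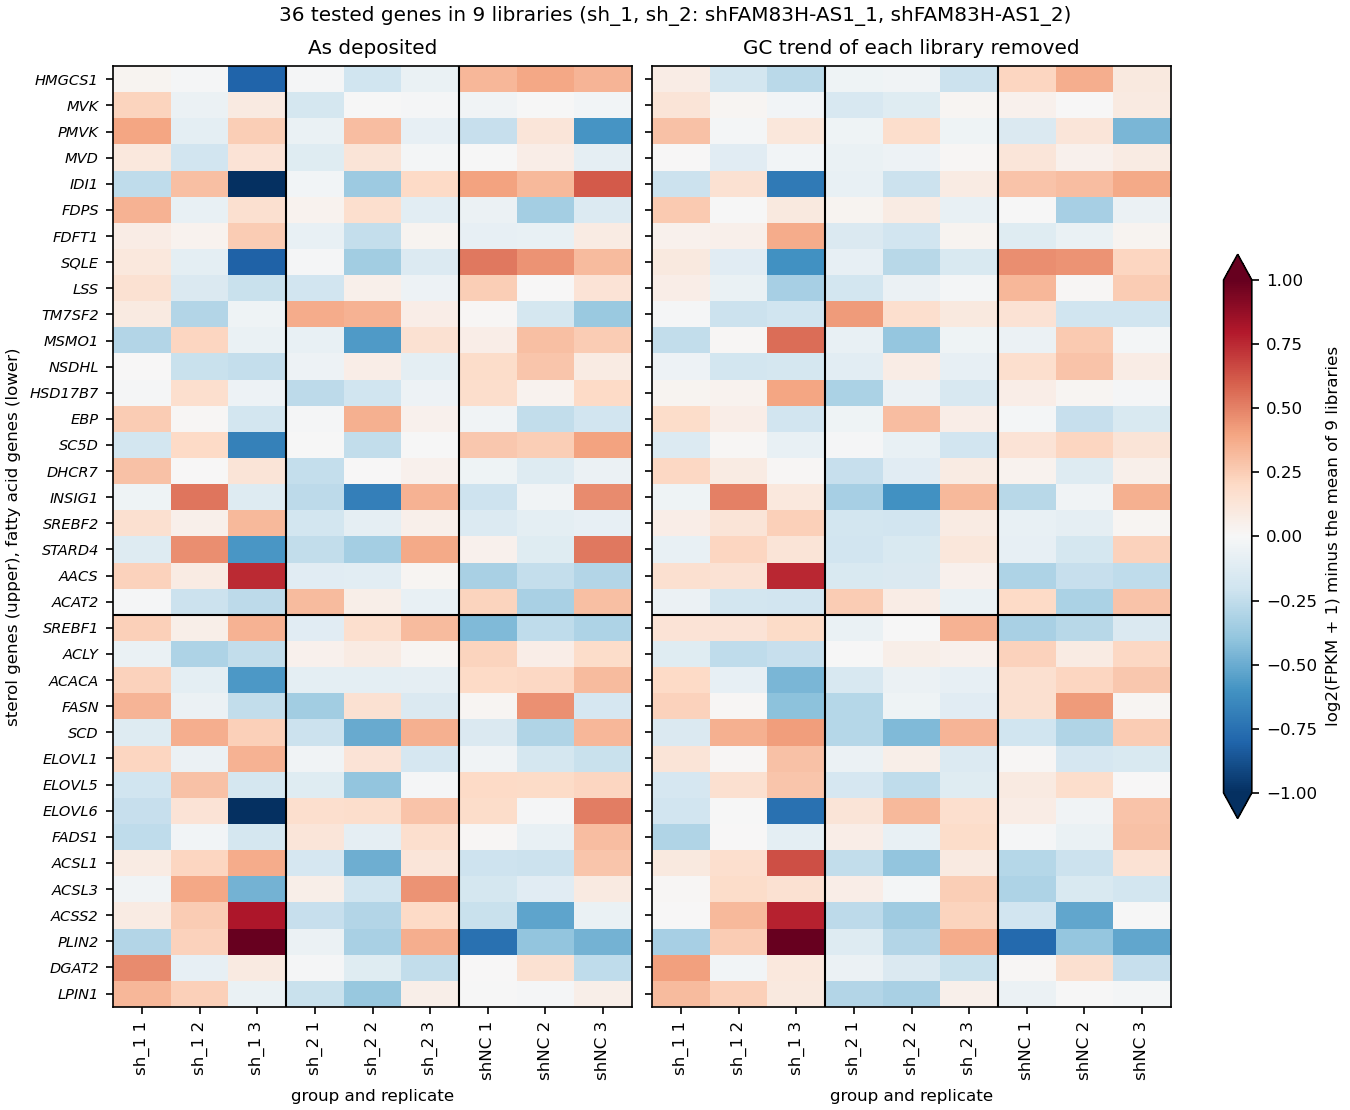
Level of the 36 tested genes (rows) in the 9 libraries (columns) as log2(FPKM + 1) minus the mean of the 9, as deposited (left) and with the GC trend of each library removed (right); the colour scale ends at 1 in each direction. HMGCS1, IDI1 and SQLE are below the mean in shFAM83H-AS1_1 replicate 3 and above it in the 3 shNC libraries in both panels, and INSIG1 and SCD are high in shFAM83H-AS1_1 replicate 2, shFAM83H-AS1_2 replicate 3 and shNC replicate 3.

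Set directly against each other, the hairpins differed in none of the 36 genes at the adjusted threshold. The 3 with an unadjusted limma p under 0.05 over the 9 libraries, taking shFAM83H-AS1_2 minus shFAM83H-AS1_1, were AACS (-0.42, adjusted p = 0.591), ACSS2 (-0.49, adjusted p = 0.615) and ACLY (0.25, adjusted p = 0.602). ELOVL6 had the highest difference, 0.65 (95% interval -0.01 to 1.31, limma adjusted p = 0.630), and PLIN2 the lowest, -0.55 (-1.48 to 0.37, limma adjusted p = 0.692). The median difference was -0.02 for sterol genes and -0.15 for fatty acid genes, beside 0.06 for all genes tested.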

How the data were processed

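RNA-seq was measured in 9 libraries, 3 per group; groups and replicate numbers are those of the sample titles. The authors deposited 1 table of FPKM per gene. The tools HTSeq 0.6.0, HISAT2 2.1.0 and Bowtie2 2.2.3 and the build hg38 are listed, with no roles, per the submitters' processing notes. Annotation release and strand setting: not given in the sources used here. Of 31005 lines, 1 stray line was dropped, and a table of gene names gave symbols for 30883 identifiers. Reads behind each FPKM came out whole for 100% of genes (tolerance 1e-05) and gave the depths, the read numbers and 1 alternative; they cover counting error only.

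Two-sided tests used limma (3.58.1, R 4.3.3) on log2(FPKM + 1), a pseudocount of 1, with the 3 groups fitted together, a variance trend, no block, and genes of 1 FPKM or more in 3 or more libraries. Benjamini-Hochberg adjustment ran over the 11875 genes. The script was tested on simulated data. GC content is that of the longest transcript in GENCODE 29. Each library is printed for SREBF1, SREBF2, INSIG1, members past the threshold and, in each list, the 6 members with the smallest p in each comparison with shNC; of the context lists, members past the threshold or else the 2 with the smallest p are named. The members and the lists were chosen with earlier results of these data known.

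Same-numbered libraries of shFAM83H-AS1_2 and shNC were treated as pairs since each of their 3 correlations of deviations was above 0.1. The labels name no shared batch, and the paired fit tests the very values from which the pairs were read. Alternatives changed the pseudocount, the filter, the scaling and the groups in the fit, added a block by replicate number, removed the GC trend, applied voom to recovered reads, or left out 1 library. ADIPOQ, FABP4, LEP and DCN were not analysed here.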

Additional observations from a re-analysis of the deposited data

How the results depend on the processing

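Over 20 alternatives, 9 of which leave out 1 library, 36 of the 42 results for the 21 members chosen by rule for printing of each library kept their direction in each alternative that could be run, and 10 passed the threshold in at least 1. The members called with shFAM83H-AS1_1 against shNC numbered 0, 1 with the GC trend removed (ACLY) and 3 with the replicate block added to that removal (AACS, ACSL1 and ACSS2). They numbered 0 to 4 when 1 library was left out, with 4 without shFAM83H-AS1_1 replicate 2, where 8.49% of all genes passed. With shFAM83H-AS1_2 they numbered 0, 4 in the fit of only the 2 groups with the replicate block, and 0 to 0 when 1 library was left out, as between the hairpins. The block changed no other call of a member. Of 11 alternatives that kept each library, SLC25A1 with shFAM83H-AS1_1 passed in 5 and missed the threshold in 6 (limma adjusted p 0.0286 to 0.271), among them the fit with the replicate block over 9 libraries (0.0756). With shFAM83H-AS1_2, SLC25A1 passed in the fit of only the 2 groups with the block (limma adjusted p = 0.0472).

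Genes called over the whole table with shFAM83H-AS1_1 numbered 187, but 30 with no filter, 118 with median-of-ratios scaling, 92 with the replicate block, 9 with only the 2 groups, 0 with only the 2 groups and the block, 588 with the GC trend removed, 741 with that and the block, 80 with voom, and 9 to 1008 when 1 library was left out (9 without shNC replicate 3, 1008 without shFAM83H-AS1_1 replicate 2). With shFAM83H-AS1_2 they numbered 3, but 14 with no filter, 1 with the 5 FPKM filter, 1 with the replicate block, 33 with only the 2 groups, 617 with those and the block, 9 with the GC trend removed, 12 with that and the block, 1 with voom, and 1 to 42 when 1 library was left out (42 without shFAM83H-AS1_1 replicate 3). Between the hairpins they numbered 11, but 7 with a pseudocount of 0.1, 4 with the block, 2 with only the 2 groups, 0 with those and the block, 38 with the GC trend removed, 31 with that and the block, 4 with voom, and 3 to 17 when 1 library was left out. With no filter the split with shFAM83H-AS1_1 was 8 higher and 22 lower, beside 111 and 76. The causes were not tested.

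The fatty acid median with shFAM83H-AS1_1 was 0.24 with the GC trend removed, with or without the replicate block, beside 0.16. The sterol median between the hairpins was -0.11 with the 5 FPKM filter, beside -0.02. When 1 library was left out, sterol medians ranged from -0.161 to 0.025 with shFAM83H-AS1_1, -0.160 to -0.0362 with shFAM83H-AS1_2 and -0.0989 to 0.0252 between the hairpins, and fatty acid medians from 0.0349 to 0.199, -0.0928 to 0.0832 and -0.189 to -0.114.

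Of these 42 results, 6 turned their sign. ELOVL6 with shFAM83H-AS1_2 was 0.0048 with median-of-ratios scaling, 0.0034 with quantile normalization, 0.0943 with the GC trend removed, with or without the block, and -0.139 to 0.124 when 1 library was left out, with positive values without shNC replicate 3 and without shFAM83H-AS1_2 replicate 1. SREBF2 with shFAM83H-AS1_2 was -0.0500 with the GC trend removed, with or without the block, and -0.0297 (without shFAM83H-AS1_2 replicate 3) to 0.0862 when 1 library was left out. With shFAM83H-AS1_1, INSIG1 ranged from -0.161 to 0.241 over such fits, negative without shNC replicate 1 or 2 or shFAM83H-AS1_1 replicate 2. TM7SF2 with shFAM83H-AS1_1 was -0.0610 with the GC trend removed, with or without the block, and -0.0027 (without shNC replicate 3) to 0.200 over the fits without 1 library. HSD17B7 with shFAM83H-AS1_1 was 0.129 with the GC trend removed, with or without the block. FASN with shFAM83H-AS1_1 ranged from -0.259 to 0.0824, positive if shNC replicate 2 or shFAM83H-AS1_1 replicate 3 was left out. Depth limits TM7SF2, STARD4, CYP51A1 and FADS2 most, with as few as 58, 49, 18 and 71 reads in a library.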
